A study of Mus musculus with 14 samples.

Results

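The comparison described here set 3 ventricle libraries from sham-operated mice given a JP2NT vector (Sham+JP2NT) beside 3 libraries from sham-operated mice given a GFP vector (Sham+GFP), chosen by their labels as 6 of the 14 libraries of the study. All mice were male C57BL/6N. They were operated on when 9 to 10 weeks old, and each received an adeno-associated virus (AAV2/9) through the tail vein 2 weeks later, at 1e+12 viral genomes in 100 ul. Ventricles were collected 6 weeks after the injection, which is 8 weeks after surgery. GFP is green fluorescent protein and served as the control cargo; JP2NT is the N-terminal fragment of junctophilin-2. The other 8 libraries, 4 TAC+GFP and 4 TAC+JP2NT, came from mice with transverse aortic constriction, which loads the left ventricle with pressure. Per the labels, the sham mice entered the study with normal function on echocardiography, so the sham groups are hearts that had an operation and a virus but no pressure load. There is no group without surgery or without a virus, and an effect that both vectors share cannot be seen in this comparison. The sources used here do not give the promoter of either vector, and the labels do not say that each library came from a separate mouse. The p-values below therefore measure the spread between these libraries only.

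Junctophilin-2 spans the narrow cleft between the transverse tubule and the sarcoplasmic reticulum of the cardiomyocyte and holds the L-type calcium channel close to the ryanodine receptor. The protease calpain cuts it in stressed hearts. The freed N-terminal fragment has been described as entering the nucleus and lowering transcription of genes driven by MEF2, a transcription factor of muscle. The comparison in sham hearts asks what the fragment does to the ventricle's transcripts when there is no pressure load.

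The 6 libraries held an estimated 8650188 to 13648521 reads assigned to genes, and this estimate is the only depth that the deposited values allow. Values are given below as jointly rescaled gene values: the deposited values brought to 1 common scale over all 14 libraries, in units close to reads. The authors had scaled the GFP and the JP2NT libraries separately, so vector and scaling set cannot be told apart, and only differences relative to the bulk of genes can be read. Replicates 1 and 2 of Sham+JP2NT were almost as alike as repeated sampling of 1 library would be. Their variance ratio, taken at the median gene of at least 1000 estimated reads, was 1.37 times what read sampling gives. The remaining 17 pairs of libraries from 1 group had ratios of 3.46 to 33.0. They were averaged and counted as 1 sample, which leaves 3 Sham+GFP samples against 2 Sham+JP2NT samples. Y-linked transcripts were present in the 6 libraries and Xist was listed at 0 to 2.2; the labels give the sex as male. Markers of lung and thymus summed to at most 2.7, and 8 of 9 markers of skeletal muscle had a mean under 10. The exception was Acta1, which cardiomyocytes also express.

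A second property of the 6 libraries was noticed in these data and has to be stated before the results. Gene by gene, the libraries lay close to 1 straight line. Its ends were Sham+GFP replicate 1 and the mean of Sham+JP2NT replicates 1 and 2. On the linear scale, Sham+GFP replicate 2 lay 31.6% of the way from the first end to the second, Sham+GFP replicate 3 lay at 52.0%, and Sham+JP2NT replicate 3 lay at 60.2%. Each position was fitted on 1 part of the genes and evaluated on the others. At these positions, the variance left over genes of at least 1000 reads was 2.32, 1.89 and 1.44 times that of read sampling, against 4.56 to 11.4 when each of these libraries was set beside either end alone. A search without fixed ends took, for each library, the best pair of other libraries with the same surgery. Over 21 pairs, the 8 TAC libraries had ratios of 4.16 to 22.0. Over 10 pairs, Sham+GFP replicate 3 had 1.61 and Sham+JP2NT replicate 3 had 1.37. Sham+GFP replicate 2 had 2.3. Sham+GFP replicate 1, an end of the line, had 4.07, close to the lowest TAC value. The TAC libraries also vary more, so their higher ratios do not show that they lack such a line. Of 42 genes with at least 1000 reads and a ratio of at least 1.5-fold between the ends, 28 were lower and 14 higher at the JP2NT end, and 42 of 42 had values between the ends in each of the 3 libraries. In 162 sets of 3 TAC libraries the share of genes lying between was 10.9 to 96.8%, with a median of 63.4%. The sham ends were the most separated of the 6 libraries, whereas the TAC sets were taken without choosing ends. In both, the genes were picked for differing between the ends. Lying between is therefore favoured in the sham set, and the shares are not a like comparison.

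**Figure D1:**
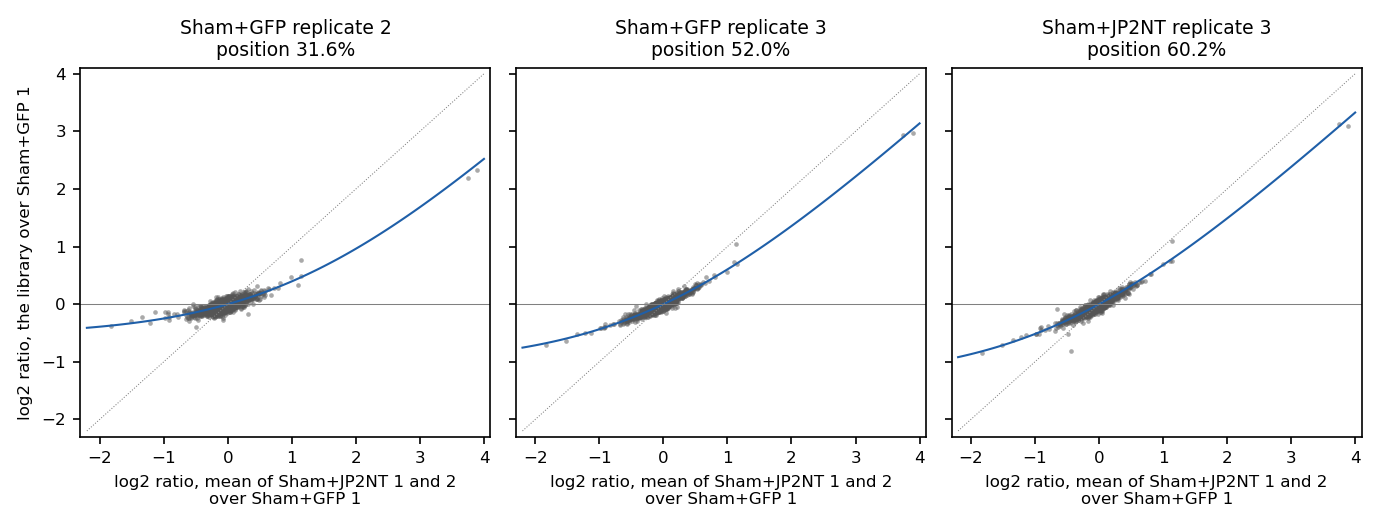
Each point is a gene; the horizontal axis is the log2 ratio of the mean of Sham+JP2NT replicates 1 and 2 to Sham+GFP replicate 1, and the vertical axis is the log2 ratio of the library named above the panel to Sham+GFP replicate 1. The blue curve is a straight-line position of 31.6%, 52.0% or 60.2% between the ends, the grey line at 0 is equality with Sham+GFP replicate 1 and the dotted line equality with the other end; the points gather along the blue curve.

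As a result, the closest libraries after the near-duplicate pair carried different vectors. Among the 15 pairs of sham libraries, Sham+GFP replicate 3 and Sham+JP2NT replicate 3 had a variance ratio of 2.0 over genes of at least 1000 reads. The remaining pairs with the same vector had ratios of 3.46 to 5.84, and Sham+GFP replicate 1 with Sham+JP2NT replicates 1 and 2 had 16.7 and 18.8. The first principal component, with 35.0% of the variance, ordered the libraries alike: Sham+GFP 31.4, 11.2 and 2.93, then Sham+JP2NT replicate 3 at -4.03 and replicates 2 and 1 at -19.5 and -21.9. Why the libraries lie on a line was not tested. The labels do not say whether RNA or libraries were pooled, mixed or exchanged. If libraries shared RNA, they would not be independent samples of their groups, and the group means, intervals and limits below would not have the meaning given to them. For several genes named below, differences are also given from the ends of the line alone and without its ends. The ends were the most separated libraries, so larger differences between them follow from that choice. Without the ends, Sham+JP2NT replicate 3 stands alone against Sham+GFP replicates 2 and 3.

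The sham ventricle itself was a transcriptome of few, very abundant transcripts. Of 24972 genes listed, 17058 were above 0 in at least 1 sham library, 12610 had a mean of at least 10 and 1895 of at least 1000. The 20 highest genes held 19.6% of the summed values, and 343 genes held 50%. Myh6, the fast myosin heavy chain of the adult mouse heart, alone held 4.18% of the summed values, and between 3.93 and 4.37% in single libraries. Atp2a2 (SERCA2, the calcium pump of the sarcoplasmic reticulum) held 2.15%, Actc1 (cardiac actin) 1.83%, Mb (myoglobin) 1.47%, Tpm1 (tropomyosin) 1.05% and Myl2 (the ventricular regulatory light chain) 1.04%. These shares count reads, which favour long transcripts. Per kilobase of transcript, Mb led with a mean level of 152885, before Actc1 with 142430, Myl2 with 134923, Myl3 with 88340.0 and Myh6 with 78607.

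By function, the 20 sarcomere genes listed held 12.8% of the summed values, 24 nuclear-encoded subunits of oxidative phosphorylation 3.85%, 26 genes of fatty acid uptake and oxidation 2.75% and 18 genes of the TCA cycle 2.5%. No row was found for the 13 mitochondrially encoded protein genes. Lpl, the lipase that frees fatty acids from lipoproteins at the vessel wall, was the 12th gene by value. Its values were 60556, 60808 and 63938 in Sham+GFP replicates 1 to 3 and 67218, 67389 and 65062 in Sham+JP2NT replicates 1 to 3. The order of values follows the position on the line, and the groups did not overlap, but the log2 difference between vectors was only 0.10.

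Between vectors, no gene passed the test. Of 13212 genes tested, 0 had a Benjamini-Hochberg adjusted p under 0.05 in limma (0% called), the smallest adjusted p was 0.998, and 581 genes (4.40%) had an unadjusted p under 0.05. The median absolute log2 difference was 0.10, or 1.08-fold, and 95% of genes differed by less than 1.45-fold; 139 genes differed by more than 2-fold. The count of 0 rests on a spread that the sham and the TAC groups share, and TAC hearts vary more: a typical gene had an SD between libraries of 0.107 (log2) in Sham+GFP and 0.0835 in Sham+JP2NT, against 0.158 and 0.176 in the TAC groups. With the sham groups alone in the fit, 1 of 12582 genes was called (0.00795%) and 1690 (13.4%) had an unadjusted p under 0.05. That gene was Rnaset2a, a secreted ribonuclease, with a log2 difference of -4.17 and an adjusted p of 0.0277 in limma. Its values were 1015, 320 and 160 in Sham+GFP and 16.0, 25.1 and 19.0 in Sham+JP2NT. It has a near-identical copy, Rnaset2b, at 813, 1385 and 1670 against 1863, 1713 and 1731, so the split of reads between the copies is uncertain.

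**Figure D2:**
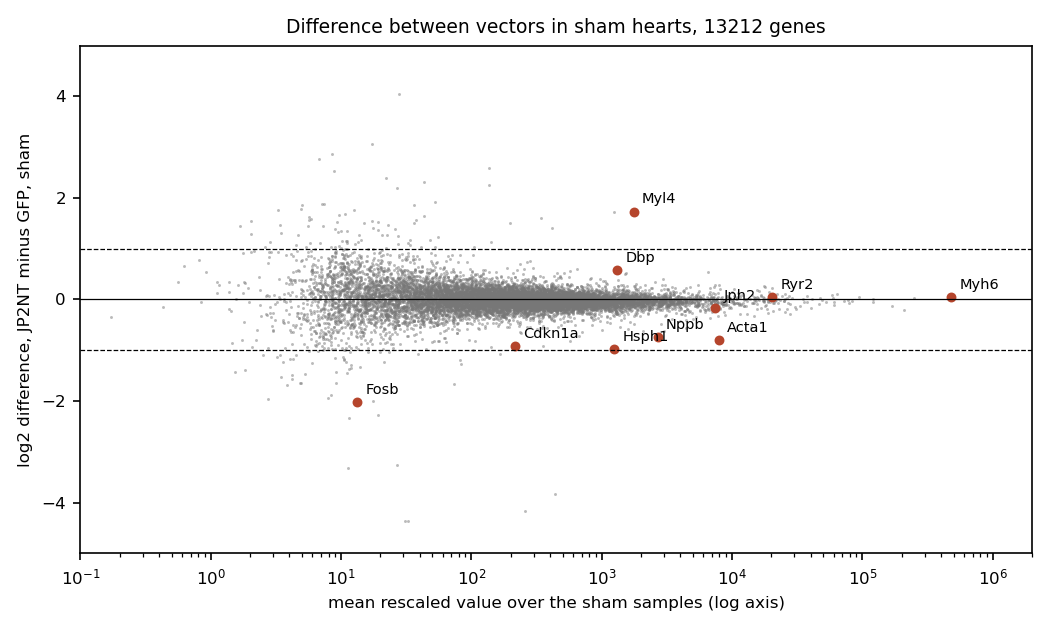
Each grey point is 1 of the 13212 genes tested; the horizontal log axis is the mean rescaled value over the sham samples and the vertical axis the log2 difference between vectors, JP2NT minus GFP, with dashed lines at a 2-fold difference. Named genes are in red; the scatter narrows with level, and 139 genes lie beyond the dashed lines.

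A missing call does not show that there is no difference, so each gene's 95% interval was read as a limit. The bound of a gene is the end of that interval farther from 0, as a fold either way. The median bound was 1.35-fold. The interval lay within 1.5-fold for 67.0% of genes, within 2-fold for 86.1% and within 3-fold for 95.7%. A pair of one-sided limma tests per gene, adjusted over all genes, showed 11753 genes (89%) to differ by less than 2-fold and 9275 genes (70.2%) by less than 1.5-fold. With the sham groups alone the median bound was 1.27-fold, and 12014 and 10175 genes were shown to differ by less than 2-fold and 1.5-fold. Intervals of single genes below come from the fit of all groups, where the spread of the TAC hearts widens many of them. With the sham groups alone, the interval left out 0 for Pdk4 (-0.80 to -0.27), Acta1 (-1.22 to -0.38), Fosb (-2.92 to -1.14), H2-Aa (0.27 to 0.94) and Myl4 (0.49 to 2.97). None of these was called there (adjusted p 0.208 to 0.243 in limma). Ryr2 (-0.04 to 0.13) and Postn (-0.04 to 0.29) still spanned 0.

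The limit depended on level. Genes with a mean under 50 had a median bound of 2.10-fold, and only 43.9% of these 2839 genes had an interval within 2-fold. For the 3575 genes between 50 and 200 the median bound was 1.43-fold, and 95.6% lay within 2-fold. Above that it was 1.26-fold for 4903 genes up to 1000, 1.21-fold for 1582 genes up to 5000 and 1.22-fold for the 313 genes above. With the sham groups alone in the fit the last 2 of these bounds were 1.14-fold and 1.11-fold. The narrowest intervals belonged to Anapc5 (-0.14 to 0.11), a subunit of the anaphase-promoting complex, and to Psmc5, Trak1, Mtch1 and 9530068E07Rik. The widest among genes with a mean of at least 100 belonged to Atp6v0c-ps2, Amd1, Rnaset2a, Hba-a2 and Eif3j2; their reads may be shared with close copies, which was not tested. Amd1, for example, was listed at 0, 0 and 0 in Sham+GFP and at 491, 0 and 576 in Sham+JP2NT.

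These limits hold for the group means as sampled. From the ends of the line alone, Sham+GFP replicate 1 against the mean of Sham+JP2NT replicates 1 and 2, with the spread taken from the TAC groups, 9335 genes (71.2%) were shown to differ by less than 2-fold and 1858 (14.2%) by less than 1.5-fold. The lone samples are assumed in that fit to vary like the TAC libraries. Without the ends, 1 gene was called, Tnfsf13, a cytokine of the TNF family, with an adjusted p of 0.0322 in limma.

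**Figure D3:**
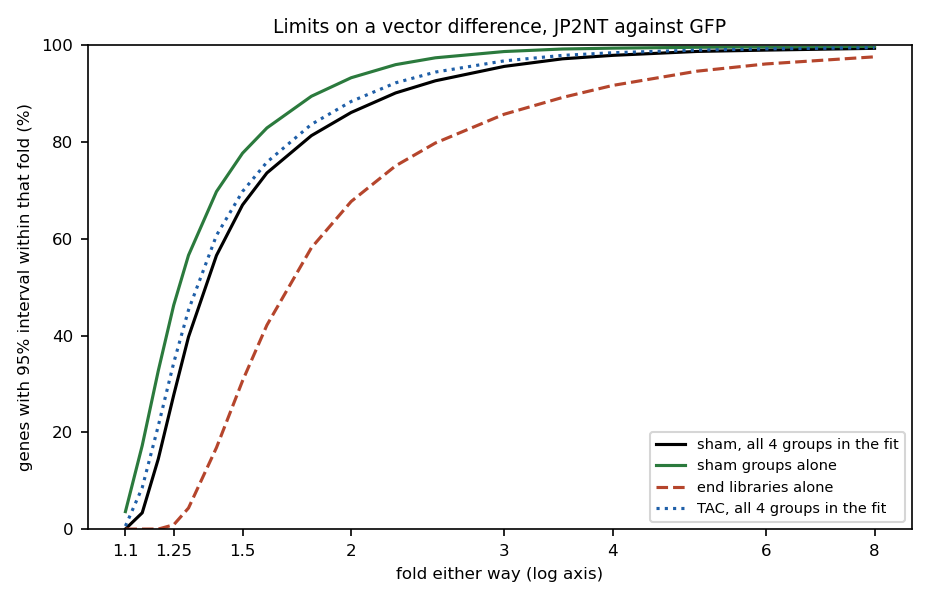
The horizontal log axis is a fold either way and the vertical axis the percent of genes whose 95% interval for JP2NT against GFP lies within that fold. The black curve (sham, all 4 groups in the fit) reaches 67.0% at 1.5-fold and 86.1% at 2-fold, the green curve (sham groups alone) lies above it, and the dashed red curve (end libraries alone) reaches 67.7% at 2-fold.

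Jph2, the gene whose product supplies the fragment, lies on the minus strand at chr2:163336242-163397993 (GRCm38). Its values were 8188, 7880 and 7670 in Sham+GFP and 6823, 6886 and 7145 in Sham+JP2NT. The 3 JP2NT libraries lay below the 3 GFP libraries, with means of 7913 ± 261 (SD, n = 3) and 7000 ± 206 (SD, n = 2). Between the ends of the line, Jph2 lay at 23.1 and 38.9% in Sham+GFP replicates 2 and 3 and at 78.2% in Sham+JP2NT replicate 3. The positions fitted over genes were 31.6, 52.0 and 60.2%. The log2 difference was -0.18 (95% interval -0.34 to -0.02; unadjusted p 0.0326, adjusted p 0.998 in limma). An exact 2-sided permutation test over the 5 samples gave p = 0.1, the smallest that 10 assignments allow. The difference was shown to be under 1.5-fold, with an adjusted p of 0.000247 in limma. In TAC hearts the corresponding difference was 0.04. No row of the table is named for GFP or JP2NT, and it is not known from the labels if reads from the vector's JP2NT transcript were assigned to Jph2. Delivery of the vector could therefore not be checked. Per kilobase, Jph2 had a mean level of 1771, Jph1 56.1, and Jph3 and Jph4, the neuronal junctophilins, less than 1.

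The other dyad genes gave narrow limits. Of 17 genes of the junctophilins and the dyad 15 could be tested, 7 with higher and 8 with lower values under JP2NT; none was called, and 15 of 15 were shown to differ by less than 1.5-fold. Asph and Trdn encode junctin and triadin, which tether calsequestrin to the release channel. Asph had 2726, 2381 and 2318 in Sham+GFP and 1889, 2003 and 2361 in Sham+JP2NT, with overlapping groups and a log2 difference of -0.20. Trdn had 2457, 2365 and 2552 against 2521, 2443 and 2550.2, a difference of 0.03. For the calpain subunits that cleave junctophilin-2, Capn1, Capn2 and Capns1, the differences were 0.07, -0.08 and 0.01, and for their inhibitor Cast 0.06. Mtm1, a phosphoinositide phosphatase needed for tubule upkeep, had the largest difference of the list at 0.28.

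Calcium release and removal genes were as tightly limited where they are abundant. Ryr2, the ryanodine receptor, had 19676, 19773 and 20793 in Sham+GFP and 20930.4, 21053 and 20465 in Sham+JP2NT, a log2 difference of 0.05 (-0.20 to 0.29). Cacna1c, the pore of the L-type channel, differed by 0.05 and Atp2a2 by 0.03. Pln, the inhibitor of SERCA2, differed by 0.08. Of 16 genes of calcium entry and release 13 were shown to differ by less than 1.5-fold, and of 10 genes of calcium removal 8 were. Casq2, cardiac calsequestrin, had the lowest unadjusted p of the release genes. Its values were 24098, 21628 and 21052 in Sham+GFP and 17995, 18004 and 19985 in Sham+JP2NT. The groups did not overlap. The log2 difference was -0.23 (interval -0.45 to -0.002, adjusted p 0.998 in limma). It was -0.42 from the ends of the line and -0.09 without them. Sln, sarcolipin, an atrial regulator of SERCA, was the exception with a difference of 1.61, and it is described with the atrial genes below.

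Of 20 potassium and sodium channel genes, 13 had higher and 7 lower values and none was called; 20 were shown to differ by less than 2-fold and 13 by less than 1.5-fold. Kcnip2, a subunit of the transient outward channel, differed by 0.18, and Kcnj2, the inward rectifier, by 0.05. Abcc9, the sulfonylurea receptor of the ATP-sensitive channel, differed by 0.24 with an unadjusted p of 0.0201. Scn4b, a sodium channel beta subunit, was level in sham hearts, at 1097, 1089 and 1098 in Sham+GFP and 987, 1044 and 1080.0 in Sham+JP2NT (-0.06, interval -0.37 to 0.24).

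Of 20 sarcomere genes 9 had higher and 11 lower values, with a median log2 difference of -0.03 beside -0.01 over all genes tested, and 19 were shown to differ by less than 1.5-fold. Tnnt2 and Tnni3, troponins T and I, differed by -0.03 and 0.03, Tpm1 by 0.00 and Ttn, titin, by 0.06. Myh7, the slow myosin heavy chain that mouse ventricles express before birth and under load, had the widest difference of the list. Its values were 1913, 2325 and 2528 in Sham+GFP and 3159, 3140.5 and 2542 in Sham+JP2NT, a log2 difference of 0.34 (-0.12 to 0.79). All 3 JP2NT values lay above the GFP values, by little for replicate 3, and without the ends of the line the difference was 0.07. Actc1 had 241344, 221061 and 213256 against 183919, 184299 and 204647, a difference of -0.21.

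**Figure D4:**
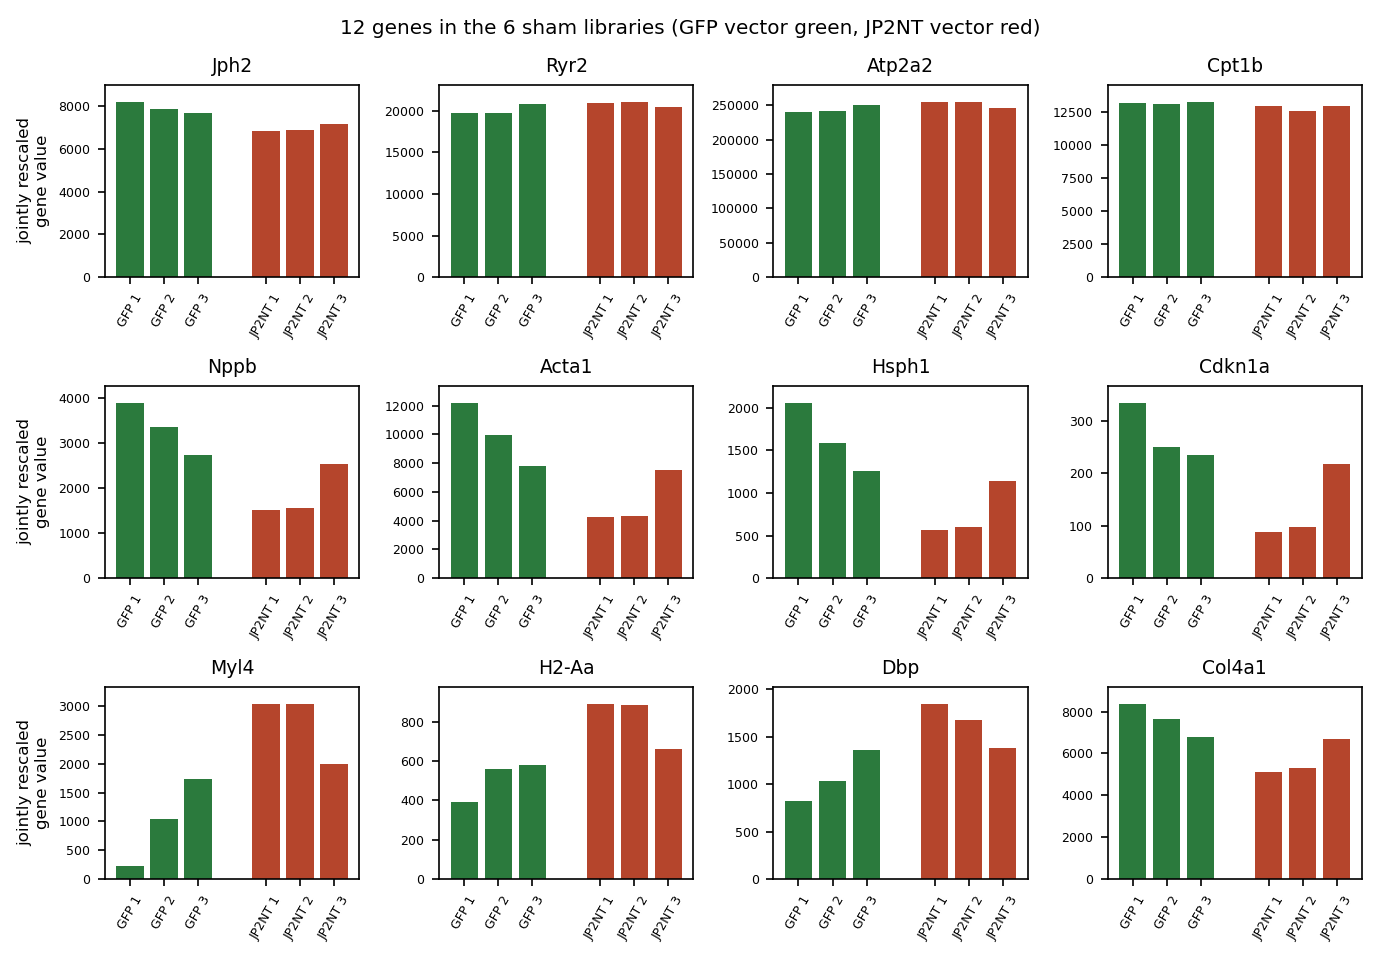
Bars give the jointly rescaled values of 12 genes in Sham+GFP replicates 1 to 3 (green) and Sham+JP2NT replicates 1 to 3 (red), each panel from 0 on its own axis. Ryr2, Atp2a2 and Cpt1b are level; in Nppb, Acta1, Hsph1, Cdkn1a and Col4a1 the bars step down from GFP 1 to JP2NT 1 and 2 with JP2NT 3 near GFP 3, and in Myl4, H2-Aa and Dbp they step up.

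Energy metabolism was level between vectors. All 18 TCA cycle genes and all 24 subunits of oxidative phosphorylation were shown to differ by less than 1.5-fold, with median log2 differences of 0.01 and -0.01, and 23 of 26 fatty acid genes were. Cs, citrate synthase, had 23580.3, 23288 and 23761 in Sham+GFP and 23673, 23453 and 23103 in Sham+JP2NT. Cpt1b, the carnitine transferase that admits fatty acids to mitochondria, had 13183, 13071 and 13231 against 12944, 12559 and 12932. These values overlapped, with differences of -0.01 and -0.04. Pdk4, the kinase that turns off pyruvate oxidation in fasting, stood apart in its list. Its values were 19101, 16127 and 14272 in Sham+GFP and 9596, 9674 and 13289 in Sham+JP2NT (log2 -0.53, interval -1.72 to 0.65). With the sham groups alone in the fit, the interval was -0.80 to -0.27 (adjusted p 0.208 in limma). Its 3 intermediate libraries lay at 31.4, 51.0 and 61.4% of the way between the ends. Without the ends of the line the difference was -0.19. Angptl4 and Fkbp5, like Pdk4 targets of glucocorticoid or fatty acid signals, differed by -0.72 and -0.37, whereas Zbtb16 differed by -0.03. In the whole list of 14 glucocorticoid and fasting genes 6 had higher and 8 lower values and none was called.

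Glycolysis, cell contacts and protein turnover added no called gene. Of 21 genes of glycolysis and creatine kinase 10 had higher and 11 lower values, and 19 were shown to differ by less than 1.5-fold. Pgam1, phosphoglycerate mutase, had 1437, 1182 and 1081 in Sham+GFP and 831, 889 and 1069 in Sham+JP2NT, without overlap by a small margin (-0.35, interval -0.61 to -0.09). Of 12 intercalated disc genes 9 had higher values, and 11 were shown to differ by less than 1.5-fold; Gja1, the gap junction protein connexin 43, differed by 0.10 and Dsp, desmoplakin, by 0.14. All 17 autophagy and lysosome genes were shown to differ by less than 1.5-fold, and Sqstm1, the autophagy receptor p62, differed by 0.09. Of 16 oxidative stress genes 4 had higher and 12 lower values. The metallothioneins Mt1 and Mt2, metal-binding proteins that glucocorticoids and metals induce, differed by -0.22 and -0.53, and Nqo1, a target of NRF2, by 0.26. Of 14 cardiac transcription factors 11 were shown to differ by less than 1.5-fold, and Hopx, the highest per kilobase of them, had 2685, 2971 and 3139 against 3752, 3446 and 3199 (0.21).

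MEF2 genes were of interest because the fragment is described as repressing them. Of 23 MEF2 factors, cofactors and described targets 21 could be tested: 9 had higher and 12 lower values, the median log2 difference was -0.04, none was called and 17 were shown to differ by less than 1.5-fold. Mef2a had 1359, 1481 and 1587 in Sham+GFP and 1658, 1815 and 1636 in Sham+JP2NT, without overlap and with a difference of 0.19. Mef2c and Mef2d differed by 0.12 and 0.01, and Hdac4 and Hdac5, which hold MEF2 proteins inactive, by 0.16 and 0.10. The widest difference of the list was that of Nr4a1, an immediate early nuclear receptor. It had 569, 463 and 350 in Sham+GFP and 190, 166 and 323 in Sham+JP2NT (-0.91, interval -2.09 to 0.27).

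The MEF2 consensus was then looked for on both strands in the 250 bases upstream of each gene start in RefSeq's promoter windows of GRCm38.p6, with no other motif searched. It occurred in 959 of 32851 windows (2.92%) and in 231 of 10374 tested genes that have a window (2.23%). Genes with a match had a median log2 difference of 0.02 and genes without one of -0.01; 45.5% of the former and 53.4% of the latter had lower values under JP2NT. No window of Jph2 held a match. The matches of 5 muscle genes are shown as examples because these genes carry the consensus beside their start. The capitals mark the match, and each stretch reads 5′ to 3′ on the gene's strand. A match describes letters and is not a bound site.
Casq2, chr3:102086321-102086380, plus strand: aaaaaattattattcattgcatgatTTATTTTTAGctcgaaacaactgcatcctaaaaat
Mybpc3, chr2:91118029-91118088, plus strand: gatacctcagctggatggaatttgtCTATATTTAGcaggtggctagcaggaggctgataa
Ttn, chr2:76982679-76982738, minus strand: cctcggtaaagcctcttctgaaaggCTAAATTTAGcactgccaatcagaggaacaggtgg
Xirp2, chr2:67445903-67445962, plus strand: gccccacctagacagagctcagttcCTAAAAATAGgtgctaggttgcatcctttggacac
Speg, chr1:75375221-75375280, plus strand: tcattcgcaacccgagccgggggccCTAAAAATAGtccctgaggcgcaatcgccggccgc
The log2 differences of these genes between vectors were -0.23 for Casq2, -0.05 for Mybpc3 (myosin-binding protein C), 0.06 for Ttn, -0.25 for Xirp2 (an actin-binding protein of the intercalated disc) and -0.10 for Speg (a kinase of the dyad). None was called. All but Ttn had lower values under JP2NT, but these 5 genes were picked as examples. Among further list members with a match, Hdac5 and Klf2 had higher values (0.10 and 0.12). Jun, Pgam2 and Srpk3 had lower ones (-0.03, -0.16 and -0.08). Of all 231 tested genes with a match, 45.5% had lower values.

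Of 18 genes that respond to load or stress 5 had higher and 13 lower values, with a median log2 difference of -0.15; none was called and 11 were shown to differ by less than 2-fold. Of these 18 genes 7 had all 3 JP2NT values below the GFP values, where 13.3% of all genes tested did, and 2 had them above, where 8.55% did. Nppb, the B-type natriuretic peptide, had 3895, 3355 and 2736 in Sham+GFP and 1523, 1549 and 2534 in Sham+JP2NT. Acta1, the skeletal actin that cardiomyocytes express under load, had 12188, 9935 and 7822 against 4219, 4294 and 7503. In both genes Sham+GFP replicate 3 and Sham+JP2NT replicate 3 lay side by side. Their log2 differences were -0.74 (-1.19 to -0.29) and -0.80 (-1.61 to 0.02), -1.34 and -1.52 from the ends of the line, and -0.26 and -0.23 without them. Ankrd1, a stretch-sensitive titin partner, and Tnfrsf12a, the TWEAK receptor, differed by -0.13 and -0.64. Nppa, the atrial natriuretic peptide, went the other way with 3972, 5551 and 6467 against 8844, 8707 and 6653 (0.55, interval -0.21 to 1.31).

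Of 20 genes of the unfolded protein and heat shock responses 5 had higher and 15 lower values, the median log2 difference was -0.19, and none was called. In 9 of them all 3 JP2NT values lay below the GFP values, where 13.3% of all genes tested did. Hsph1, a heat shock protein of the HSP110 family, had 2057, 1583 and 1261 in Sham+GFP and 561, 599 and 1146 in Sham+JP2NT. Its log2 difference of -0.97 (-1.54 to -0.41) was the largest of the list; it was -1.82 from the ends of the line and -0.30 without them. Hspa5, the endoplasmic reticulum chaperone BiP, had 10976, 9349 and 8925 against 7202, 7251 and 8529.8 (-0.31, interval -0.52 to -0.09). Hspb1 and Hspa8 differed by -0.63 and -0.19. Atf4 and Ddit3, transcription factors of the same response, differed by -0.10 and 0.15. Cdkn1a, the cell cycle inhibitor p21, had 334, 251 and 234 in Sham+GFP and 88.3, 97.1 and 217 in Sham+JP2NT, a difference of -0.92 (-1.76 to -0.09). Mdm2 and Ccng1, which p53 also drives, differed by -0.12 and -0.13, and of 14 genes of DNA damage and p53 none was called.

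Immediate early genes, which are transcribed within minutes of a stimulus, had lower values in 17 of 20 and higher values in 3, with a median log2 difference of -0.30 and none called. Fos had 223, 181 and 148 in Sham+GFP and 64.1, 73.8 and 128 in Sham+JP2NT (-0.94, interval -2.87 to 0.99). Fosb, the member with the widest difference, had 26.2, 16.3 and 22.9 against 4.9, 1.2 and 6.5 (-2.03, interval -4.99 to 0.93). With the sham groups alone in the fit, its interval was -2.92 to -1.14 (adjusted p 0.208 in limma). Egr1 and Dusp1 differed by -0.55 and -0.34, but Jun by -0.03 and Klf4 by -0.05. In 10 of the 20 genes, Fos and Fosb among them, all 3 JP2NT values lay below the GFP values, where 13.3% of all genes tested did. In 1 they lay above, where 8.55% of all genes tested did.

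**Figure D5:**
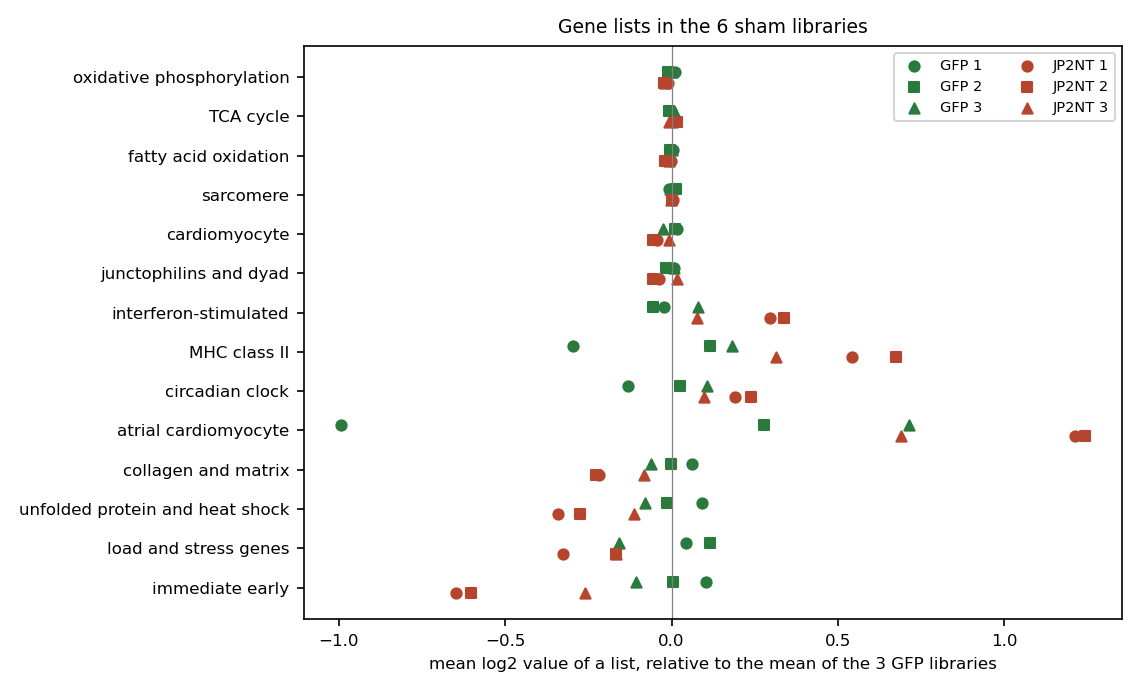
Each symbol is the mean log2 value of a gene list in 1 library, relative to the mean of the 3 Sham+GFP libraries; green is GFP, red is JP2NT, and circles, squares and triangles are replicates 1, 2 and 3. Metabolic, sarcomere and dyad lists gather at 0, immediate early genes lie at -0.65, -0.60 and -0.26 in JP2NT, and atrial genes spread from -0.99 to 1.24.

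Of 29 collagen and matrix genes 10 had higher and 19 lower values, with a median log2 difference of -0.22, none called and 24 shown to differ by less than 2-fold. Col4a1, the basement membrane collagen, had 8358.5, 7655 and 6803 in Sham+GFP and 5100.2, 5290.5 and 6677 in Sham+JP2NT (-0.36, interval -0.88 to 0.15). Col3a1 and Col1a1, fibrillar collagens of the interstitium, differed by -0.33 and -0.26, and Fbn1, fibrillin-1, by -0.46. Dcn, the proteoglycan decorin, had 4405, 4951 and 5440 against 6438, 6441 and 5574 (0.29, interval 0.06 to 0.51). Of the inhibitors of matrix proteases, Timp2 and Timp3 differed by 0.16 and 0.15. Timp1, the member with the widest difference of the list, had 86.4, 71.7 and 72.7 in Sham+GFP and 32.8, 30.9 and 63.5 in Sham+JP2NT (-0.75, interval -1.66 to 0.16). Postn, the periostin of activated fibroblasts, was at 498, 470.0 and 537 in Sham+GFP and 578, 549 and 532 in Sham+JP2NT, with overlapping groups. Of 17 activated fibroblast genes 10 had higher and 7 lower values and none was called.

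Genes of antiviral and immune responses were examined because both groups carried a virus. Of 24 interferon-stimulated genes 19 had higher and 5 lower values under JP2NT, with a median log2 difference of 0.22 and none called; 20 were shown to differ by less than 2-fold. Their levels were low: Isg15 had 53.3, 53.2 and 68.1 in Sham+GFP and 85.6, 85.6 and 66.2 in Sham+JP2NT (0.38). Ifit3 had 135, 186 and 219 against 276, 311 and 239, without overlap (0.58, interval 0.15 to 1.01). Of these 24 genes 9 had all 3 JP2NT values above the GFP values, where 8.55% of all genes tested did. Sensors and cytokines were lower still. Tlr9, the sensor of unmethylated DNA, had 13.2, 7.1 and 14.5 against 16.9, 6.9 and 13.2, and Il6 and Tnf stayed under the filter.

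The 7 MHC class II genes, which antigen-presenting cells express, had higher values in 7 of 7 with a median log2 difference of 0.50, and none was called. H2-Aa had 391, 561 and 580 in Sham+GFP and 891, 884 and 661 in Sham+JP2NT (0.60, interval -0.02 to 1.23); it was 1.18 from the ends of the line and 0.21 without them. In bulk tissue a larger number of such cells and more RNA per cell cannot be told apart. The 14 macrophage markers summed to 5258 to 5581 in Sham+GFP and to 4838 to 5268 in Sham+JP2NT, and 4 of them had higher and 10 lower values. MHC class I genes differed less, with a median of 0.12; H2-K1 had 1940, 2276 and 2369 against 2704, 2875 and 2342. Of 14 T and NK cell markers 12 were listed and only Cd4 passed the filter, with 11 of 12 under a mean of 10.

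Clock genes were at values that differ among the libraries. Of 18 genes 14 had higher and 4 lower values, with a median log2 difference of 0.19 and none called. Dbp, an output gene of the clock with a wide daily swing, had 820, 1034 and 1359 in Sham+GFP and 1846, 1675 and 1377 in Sham+JP2NT (0.57, interval -0.17 to 1.31). Arntl, the BMAL1 gene that peaks opposite to Dbp, had 74.0, 43.1 and 38.6 against 11.0, 18.3 and 35.8 (-1.08, interval -2.34 to 0.17). Nr1d1 differed by 0.05.

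Atrial cardiomyocyte markers had the largest median difference of any list. Of 9 atrial markers 8 could be tested, 7 with higher and 1 with lower values and a median log2 difference of 1.01; none was called. Their summed values were 4922 to 10813 in Sham+GFP and 11345 to 16254 in Sham+JP2NT. Myl4, the atrial essential light chain, had 226, 1034 and 1729 in Sham+GFP and 3036, 3036 and 1989 in Sham+JP2NT. Myl7, the atrial regulatory light chain, had 151, 757 and 1191 against 2218, 2279.6 and 1296, and Sln had 40.7, 241 and 326 against 639, 601 and 331. The groups did not overlap, but the range within Sham+GFP was wider than the gap between the groups. The log2 differences were 1.73 (-0.23 to 3.69), 1.73 (-0.56 to 4.01) and 1.61 (-0.62 to 3.84). For Myl4 and Myl7 they were 3.74 and 3.88 from the ends of the line and 0.57 and 0.45 without them. The labels say only that ventricles were taken, and the part of atrial tissue in these differences was not tested. Markers of the conduction system and of the vessels differed less: 5 of 7 conduction genes had higher values (median 0.37), and 12 endothelial markers had a median of -0.02. The 12 cardiomyocyte markers were all shown to differ by less than 1.5-fold, and their sums were 1325701 to 1363318 in Sham+GFP and 1297614 to 1325956 in Sham+JP2NT.

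Markers of the other stromal cells and of blood held no called gene either. Of 10 fibroblast markers 7 had higher and 3 lower values, with sums of 25223 to 29391 in Sham+GFP and 30205 to 33655 in Sham+JP2NT. Gsn, gelsolin, made up most of this sum, at 13863, 16428 and 17135 against 20461, 20490.4 and 17698 (0.27, interval -0.03 to 0.58), while Pdgfra, a fibroblast receptor, differed by 0.01. Pericyte and smooth muscle markers had medians of 0.05 and -0.02. Haemoglobin alpha, Hba-a1, had 6044, 6399 and 7647 in Sham+GFP and 8496, 8619 and 7734 in Sham+JP2NT (0.29). Its near-identical copy Hba-a2 can share reads with it, so the value of each alone is uncertain. The red cell markers summed to 6880.2 to 8497 and 8649 to 9990.1. Of 13 complement genes 9 had higher and 4 lower values, led by C1ra, a protease of the classical pathway, at 0.38. The 20 cell cycle genes summed to 940 to 982 in Sham+GFP and to 961 to 1002 in Sham+JP2NT. None of the genes in these lists was called.

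By smallest unadjusted p, which describes the upper edge of the comparison and is no finding, the lower genes were led by Rab30, a small GTPase, with 66.5, 58.6 and 65.4 in Sham+GFP and 40.9, 28.6 and 35.8 in Sham+JP2NT (-0.83). Alpl, alkaline phosphatase, had 866, 825 and 733 against 596, 574 and 634 (-0.40), and Slc39a14, a zinc and iron importer, 1457, 1253 and 1220 against 899, 974 and 1105 (-0.36). The higher genes were led by Gm3055, with 0, 0 and 23.4 against 63.6, 55.4 and 36.8, whose reads may be shared with copies. Pcsk6, a proprotein convertase, had 733, 990 and 972 against 1151, 1202 and 1112 (0.36). The groups did not overlap in these genes, and none of their adjusted p-values in limma was under 0.998.

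The same vectors in pressure-loaded hearts gave a different count from libraries that this comparison does not share. There, 812 of 13212 genes were called (6.15%), 363 higher and 449 lower under JP2NT. The difference between the comparisons was itself tested as the interaction of surgery and vector, which called 10 genes (0.0757%), 5 in each direction. Both counts depended on single libraries; at the extremes of leaving out 1 of the 14, the TAC count was 268 without TAC+GFP replicate 2 and 1069 without TAC+JP2NT replicate 3, and the interaction count was 0 without Sham+JP2NT replicate 3 and 53 without TAC+JP2NT replicate 3. Scn4b had a log2 difference of 1.3 in TAC hearts against -0.06 in sham hearts (interaction 1.36, adjusted p 0.00895 in limma). Mylk4, a myosin light chain kinase of muscle, had 0.90 against 0.01 (adjusted p 0.00852 in limma). Eif4ebp1, an inhibitor of translation initiation, had -0.76 against 0.29, with values of 669, 686 and 767 in Sham+GFP and 888, 918 and 827 in Sham+JP2NT. Of the lists, load genes had 9 of 18 members called lower in TAC hearts and collagen and matrix genes 10 of 29, against 0 in sham hearts. No member of either list was among the 10 interaction genes, so a difference between sham and loaded hearts was not shown for them.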

How the data were processed

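Polyadenylated RNA of 14 ventricle libraries was sequenced as stranded paired-end reads. Per the submitters' processing notes, FastQC 1.0.0, STAR 2.6.1a, Salmon (no version) and mm10 were used. The deposited values are a signal: the authors' gene counts divided by scale factors, set separately for 7 GFP and 7 JP2NT libraries, as the values themselves show. Divided by the commonest low value of a library, 1.63% and 1.85% of values lay within 0.001 of a whole number, so reads could not be recovered and count models were not used.

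Values were rescaled over 14 libraries by unweighted trimmed means of M-values (30% and 5% trims). Sham+JP2NT replicates 1 and 2 were averaged. The filter kept genes that reached 10 in 3 or more samples, and these were tested on log2(value + 1) with limma-trend (limma 3.58.1, R 4.3.3), 1 mean per group and 1 spread (9 residual and 5.71 prior degrees of freedom), 2-sided, with Benjamini-Hochberg adjustment and a threshold of 0.05. Fold changes on this scale understate low genes. Differences under 2-fold and 1.5-fold were tested with 2 one-sided tests per gene from the same fit. Scripts were checked on simulated data. Counting-noise ratios (variance ratios) used genes of at least 50 or 1000 estimated reads. Each is the median over genes of the squared difference over its counting variance, divided by the median that counting alone gives. The most different genes therefore weigh little. Levels per kilobase used GENCODE vM21 transcript lengths.

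The groups, the 50 gene lists and the rule for naming genes were chosen with earlier results of these data known. Named were Jph2, a fixed set of 34 genes, the genes of smallest p, the highest and the most different member of each list, the most abundant genes, the most variable ones, those with the narrowest and widest intervals and the interaction genes. Other genes in the text are list members, given with their list. The line between libraries was noticed in the data. Lists are described by counts and medians, without a set test. A few genes of the lists are not reported here by name.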

Additional observations from a re-analysis of the deposited data

Results flagged for a closer look

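In 10 genes the difference between vectors in sham hearts was not that in TAC hearts, by limma's test of the interaction of surgery and vector (adjusted p under 0.05 over 13212 genes). Interaction values are log2, TAC minus sham. In 5 genes the value was positive. Rtn4r, a receptor of myelin inhibitors, had 2.61, with values of 180, 119 and 110 in Sham+GFP and 54.7, 63.8 and 94.4 in Sham+JP2NT. Scn4b, the sodium channel subunit, had 1.36, Gal3st3, a sulfotransferase, 1.28, Mylk4 0.89 and Cpox, an enzyme of haem synthesis, 0.71. For Cpox the sham difference was -0.26 and the TAC difference 0.45.

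In the other 5 the value was negative. Efhd2, a calcium-binding protein, had -1.24, Eif4ebp1 -1.05 and Gpx3, a secreted glutathione peroxidase, -0.97. Retreg1, a receptor for autophagy of the endoplasmic reticulum, had -0.89, and Hist1h1c, a linker histone, -0.84. For Efhd2, Gal3st3, Hist1h1c, Mylk4 and Scn4b the sham difference was within 0.12 of 0, and for Gpx3 and Retreg1 it was 0.20 and 0.23. None of the 10 reversed under 27 alternatives. Each stayed past the threshold in 12 to 23 of them, fewest for Gal3st3 and Hist1h1c and most for Eif4ebp1.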

How the results depend on the processing

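In the sham comparison the count of called genes was 0 under each scaling, filter, pseudocount and spread alternative with all groups in the fit. It was 1 with the sham groups alone, 1 from the end libraries alone (Gm3055), 2 with Sham+GFP replicates 2 and 3 left out (Gm3055 and H2-Q8), 1 without the 3 end libraries, and 0 to 1 when single libraries were left out (Gm3055 without Sham+GFP replicate 3). With the sham groups alone and their 6 libraries taken as separate samples, the count was 362. Jph2 then had -0.19 (adjusted p 0.0317 in limma), and the near-duplicate pair counts as 2 samples there. With 14 separate libraries and all groups in the fit, the count was 0. Jph2 had -0.19 in that fit too (adjusted p 0.459 in limma). Jph2 stayed below 0 in 22 of 22 alternatives (-0.26 to -0.12).

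Genes shown to differ by less than 1.5-fold numbered 1858 from the end libraries and 5651 without Sham+GFP replicates 2 and 3, against 7047 to 9143 when single sham libraries were left out. TAC calls were 1417 with values as deposited, 412 with a spread per group, 468 without a trend, 186, 380 and 407 with the 3 sets of sham libraries above left out, and 268 (without TAC+GFP replicate 2) to 1069 (without TAC+JP2NT replicate 3) by single library. Interaction calls were 6 without a filter, 127 with 14 separate libraries, 76 with a spread per group, 0 without a trend, 1, 4 and 0 with those sets left out, and 0 (without Sham+JP2NT replicate 3) to 53 (without TAC+JP2NT replicate 3) by single library.

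Correlations of same-numbered deviations were -0.14, 0.03 and -0.10. Each group has only 3 libraries, and Sham+JP2NT replicates 1 and 2 are near-duplicates. These values therefore cannot decide whether replicate numbers pair the libraries. With a replicate block the sham count was 0 in both fits, and the interaction count 77 with 14 libraries. Of 3664 values of named genes under alternatives 387 moved by more than the spread and 102 changed sign, 15 of these with values as deposited, which shift the median gene by -0.08. Genes under 50 in mean value had the widest bounds, with a median of 2.10-fold.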
